A study of Drosophila melanogaster with 27 samples.

Results

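The mRNAs of voltage-gated and potassium channels were followed through input lysate, Fmr1 pull-down and IgG pull-down of fly heads of the wild type and of a Ythdf mutant. The members were the rows of the count table whose gene carries a listed symbol, 36 symbols for pore-forming subunits and their auxiliary proteins. Of these, 35 were among the 17807 genes of the table, and the calcium channel beta subunit Ca-beta was not analysed here. All 35 had enough counts to be among the 11469 genes tested.

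The study used Drosophila melanogaster of the stock w1118, taken as wild type, and of the stock CG6422 with genotype Ythdf#0/#0, which the labels do not describe further. For each genotype 200 heads of pupae were lysed, a small share of the lysate was kept as input, and the remainder was split between antibodies to the endogenous Fmr1 protein and mouse IgG on beads, with no crosslinking step in the protocol. Input, Fmr1 and IgG libraries each came from 5 wild-type replicates, numbered 1, 2, 3, 5 and 7, and from 4 mutant replicates, numbered 1, 2, 3 and 7. The labels give whole brain as the tissue although the protocol speaks of heads, and the question was which mRNAs Fmr1 binds and whether that depends on Ythdf.

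Fmr1 belongs to the family of RNA-binding proteins whose human member is missing in fragile X syndrome, and it represses or tunes translation of neuronal mRNAs. Ythdf is a cytoplasmic reader of methylated adenosines in mRNA. Voltage-gated sodium and calcium channels drive and shape action potentials and transmitter release, whereas potassium channels repolarise the membrane and set its resting potential, and auxiliary subunits govern how many channels reach the surface and how they gate. Their transcripts in flies are long, heavily spliced and largely neuronal.

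Between 5623123 and 13240187 reads per wild-type input were assigned to genes, and between 14843961 and 29699547 per wild-type Fmr1 library. The mutant had 9207492 to 15459370 per input and 10726339 to 54195136 per Fmr1 library. IgG libraries were shallower, at 196933 to 5879253 and 274951 to 3052311, so that the 35 channel genes together had as few as 2050 counts in a wild-type and 2565 in a mutant IgG library. Ythdf mRNA stood at 33.2 ± 3.26 CPM (SD, n = 4) in mutant and 61.8 ± 5.18 CPM (n = 5) in wild-type inputs without overlap, so the mutant inputs still held reads of the gene. All 12 neuronal and all 8 glial marker genes had counts in every group, as did all photoreceptor and muscle markers. Because heads were sampled in bulk, fewer cells of a type and less RNA per cell cannot be told apart. Values below are TMM-scaled CPM in the order of the replicate numbers given above, and log2 fold changes carry the SE from edgeR.

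In wild-type inputs, the level per kilobase of exon was highest for qvr and lowest for the inward rectifier Irk1. The gene qvr, which encodes the membrane-anchored Shaker partner also called Sleepless, had 179 ± 40.5 CPM per kb (SD, n = 5) and lay above every other channel gene in all 5 libraries. Next stood the sodium channel subunit TEH2 (64.2 ± 13.2 CPM per kb), the calcium-activated potassium channel slo (54.3 ± 13.8), the A-type potassium channel Shal (53.4 ± 6.75) and the T-type calcium channel Ca-alpha1T (51.5 ± 4.54), whose ranges over libraries overlapped. The sodium channel para had 40.6 ± 11.6 CPM per kb, close to unc79 (37.9 ± 2.81) and NaCP60E (37.7 ± 4.83). At the low end were sand (2.53 ± 0.659), Ork1 (1.48 ± 0.195) and Irk1 (1.10 ± 0.155 CPM per kb), whose values in the IgG libraries rest on few counts. Irk1 shares 61.04% of its exon bases with an overlapping gene on the same strand, and how reads in shared exons were assigned is not given in the sources used here.

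Most channel mRNAs were more abundant in the Fmr1 pull-down than in input, in both genotypes. In the wild type 20 of 35 were higher, against 23.2% of all genes tested, and 4 were lower, against 25.6%. In the mutant 23 were higher, against 21.7% of all genes, and 2 were lower, against 24.8%. Groups did not overlap for 20 genes above (18.9% of all genes) and 3 below (20.7%) in the wild type, and for 23 above (20.7%) and 2 below (25.4%) in the mutant. The median log2 fold change of the channel genes was 0.76 in the wild type and 0.86 in the mutant, with −0.03 and −0.10 over all genes tested. All 3 genes of the sodium leak channel and all 4 calcium channel genes were higher in both genotypes, and none of the 3 inward rectifiers was.

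**Figure D1:**
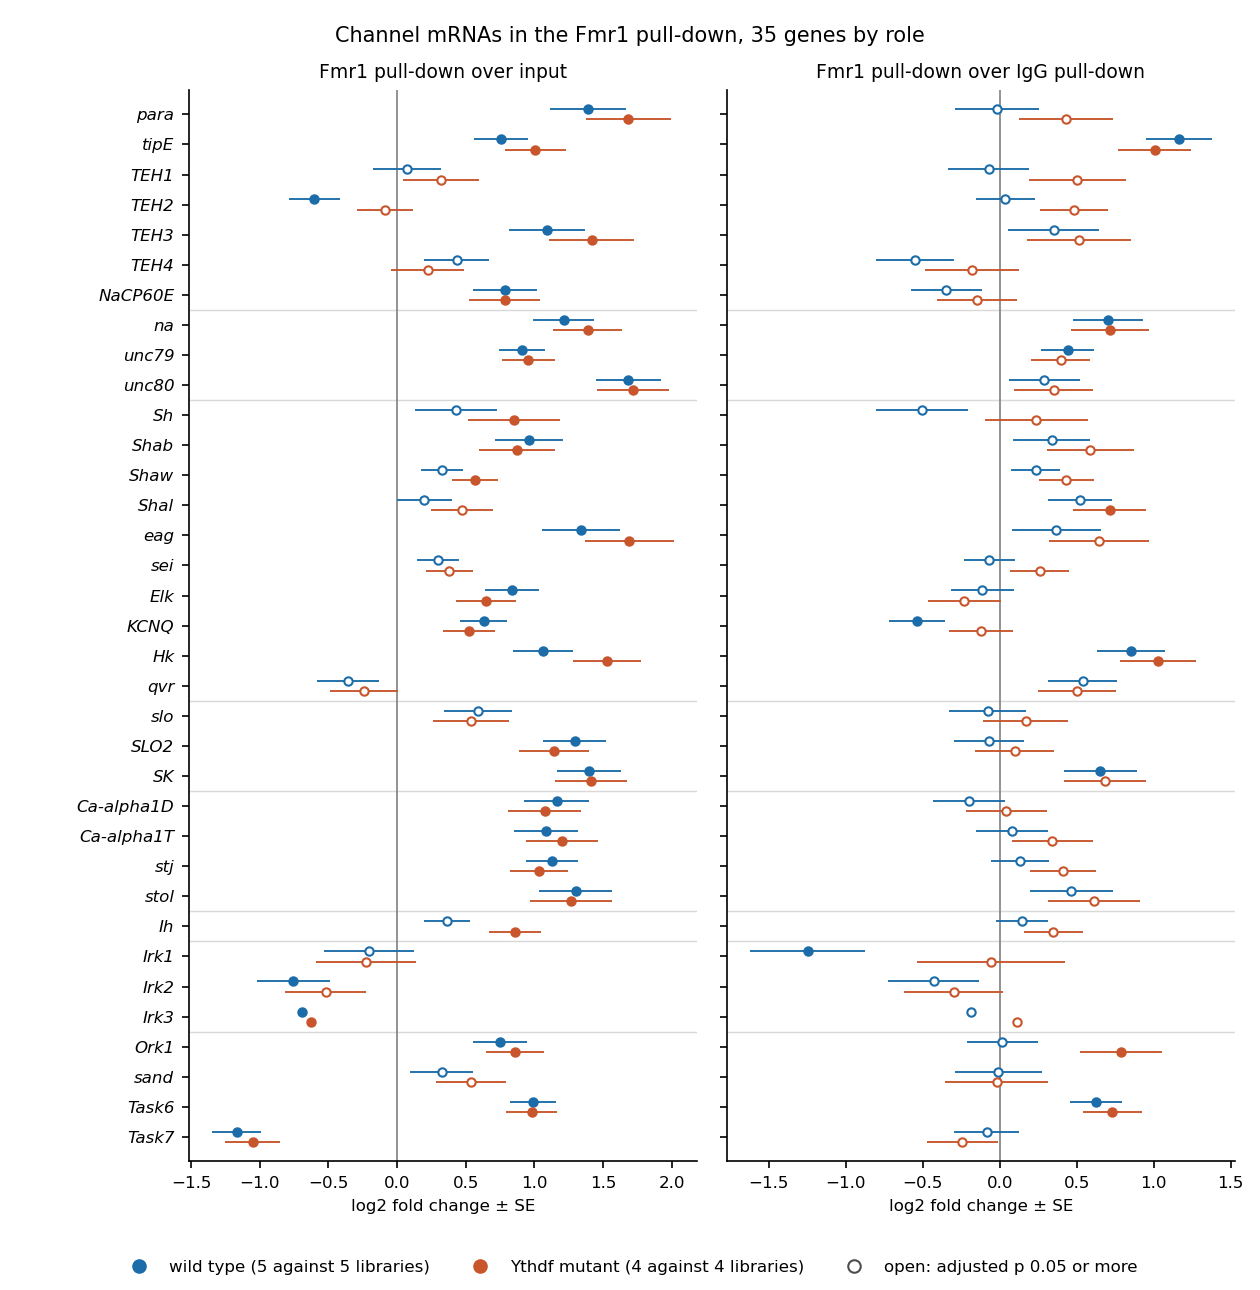
Log2 fold change of each of the 35 channel genes in the Fmr1 pull-down over input (left) and over the IgG pull-down (right), with SE, in the wild type (blue) and the Ythdf mutant (orange). Filled points passed an adjusted p of 0.05, Irk3 is drawn without an error bar, and grey lines separate the roles. Over input 20 wild-type and 23 mutant points are filled on the right of 0, and over IgG 6 and 6.

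Among sodium channel genes, the pore-forming subunit para had the highest fold change over input. It was at 828, 576, 369, 770.0 and 765 CPM in wild-type inputs and 1497, 2345, 1986, 1481 and 1359 CPM in the Fmr1 libraries. In the mutant the inputs held 356, 499, 419 and 366 CPM and the Fmr1 libraries 1342, 1453, 1591 and 892 CPM. Every Fmr1 library exceeded every input of its genotype, and the log2 fold change was 1.39 ± 0.28 (adjusted p = 0.000143) in the wild type and 1.69 ± 0.31 (adjusted p = 8.26e-05) in the mutant. Its auxiliary subunit tipE, which raises the current Para carries, was at 90.3, 99.2, 81.6, 67.3 and 88.2 CPM in wild-type inputs and 114, 201, 171, 112 and 124 CPM in Fmr1 libraries. Mutant tipE was at 60.8, 64.9, 62.4 and 46.2 CPM in inputs and 105, 145, 141 and 80.8 CPM in Fmr1 libraries. These did not overlap in either genotype, with 0.76 ± 0.20 (adjusted p = 0.00203) and 1.01 ± 0.22 (adjusted p = 0.000463).

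The tipE homologues TEH1 to TEH4, further auxiliary subunits of the sodium channel, did not move together. TEH3 rose from 33.6, 33.4, 30.6, 27.8 and 34.5 CPM in wild-type inputs to 38.1, 111, 97.5, 43.5 and 51.0 CPM with Fmr1, and from 21.5, 26.7, 20.9 and 20.9 to 39.3, 76.4, 86.6 and 38.3 CPM in the mutant. Replicates 2 and 3 were highest with Fmr1 in both genotypes, and the log2 fold changes were 1.09 ± 0.28 (adjusted p = 0.00178) and 1.42 ± 0.31 (adjusted p = 0.000528). TEH2 fell in the wild type, from 283, 210.3, 175, 179 and 207 CPM in inputs to 175, 136, 136, 139.8 and 108 CPM with Fmr1, and was at 143, 139.8, 136 and 115 CPM in inputs and 174, 120.3, 109.6 and 97.9 CPM with Fmr1 in the mutant. The wild-type groups did not overlap (−0.60 ± 0.18, adjusted p = 0.00799) and the mutant groups did (−0.09 ± 0.21, adjusted p = 0.757). Exons of TEH2 and TEH3 overlap on the same strand, over 14.44% of the TEH3 exon bases. TEH1 (0.07 ± 0.25 and 0.32 ± 0.28) and TEH4 (0.43 ± 0.24 and 0.22 ± 0.26) passed in neither genotype. NaCP60E, which encodes a cation channel related to sodium channels, rose from 699.9, 618, 512, 585 and 528 to 1087, 1086, 901, 1056 and 946 CPM in the wild type and from 402, 482, 450.3 and 341 to 750.3, 767, 752 and 618 CPM in the mutant. Neither pair of groups overlapped, with 0.79 ± 0.23 (adjusted p = 0.00595) and 0.79 ± 0.26 (adjusted p = 0.014).

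All 3 genes of the sodium leak channel complex, which sets resting excitability and takes part in circadian behaviour, rose over input. The pore gene na was at 182, 178, 155, 133 and 174 CPM in wild-type inputs and 267, 545, 457, 256 and 376 CPM with Fmr1, and at 121, 125, 132 and 119 CPM in inputs and 210.4, 386, 438 and 264 CPM with Fmr1 in the mutant. Its libraries did not overlap, and the changes were 1.21 ± 0.22 (adjusted p = 6.43e-05) and 1.39 ± 0.25 (adjusted p = 6.86e-05). The accessory protein gene unc80 had the highest fold change over input of all channel genes in both genotypes. It rose from 256, 269.9, 244, 244 and 248 to 636, 1080, 894, 651 and 796 CPM in the wild type and from 210.3, 196, 197 and 199 to 424, 832, 908 and 469 CPM in the mutant. Inputs lay close together while replicates 2 and 3 stood highest with Fmr1, and the changes were 1.69 ± 0.23 (adjusted p = 1.44e-06) and 1.72 ± 0.26 (adjusted p = 8.56e-06). Its partner unc79 was at 424, 408, 367, 375 and 357 CPM in inputs and 659.6, 811, 704, 672 and 780.1 CPM with Fmr1 in the wild type, and 365, 345, 314 and 329 CPM in inputs and 590.5, 679, 651 and 704 CPM with Fmr1 in the mutant. With Fmr1 every library was above every input, at 0.91 ± 0.17 (adjusted p = 7.57e-05) and 0.96 ± 0.19 (adjusted p = 0.000197).

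Among the 10 genes of voltage-gated potassium channels and their subunits, 5 rose over input in the wild type and 7 in the mutant, and none fell. The ether-a-go-go channel gene eag rose from 168, 135, 100.5, 154 and 156 to 262, 590.1, 463, 259 and 230.4 CPM in the wild type and from 73.6, 96.8, 89.9 and 80.1 to 222, 342, 401 and 134 CPM in the mutant. Replicates 2 and 3 again stood highest with Fmr1, and the groups did not overlap (1.34 ± 0.29, adjusted p = 0.000344, and 1.69 ± 0.32, adjusted p = 0.000129). Hk, the beta subunit of Shaker channels, rose from 522, 413, 362, 514 and 578 to 873, 1401, 1186, 809 and 718 CPM and in the mutant from 266, 308, 303 and 308 to 740.5, 946, 1232 and 498 CPM. No library overlapped, with 1.06 ± 0.22 (adjusted p = 0.000213) and 1.53 ± 0.25 (adjusted p = 1.75e-05). The delayed rectifier Shab rose from 676, 550.3, 483, 491 and 425 to 1086, 1241, 1029, 1061 and 698 CPM and in the mutant from 343, 366, 377 and 260.3 to 643, 686, 741 and 399 CPM. Replicate 7 was the lowest Fmr1 library in both genotypes, still above every input, at 0.96 ± 0.25 (adjusted p = 0.00209) and 0.87 ± 0.28 (adjusted p = 0.0114).

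The eag-like channel Elk, with 37.1, 43.5, 36.0, 39.5 and 36.8 CPM in wild-type inputs and 67.8, 76.2, 71.4, 64.8 and 64.2 CPM with Fmr1, rose by a log2 change of 0.83 ± 0.20 (adjusted p = 0.000863). In the mutant it went from 29.5, 29.6, 31.2 and 25.1 to 40.7, 52.7, 50.9 and 36.9 CPM (0.65 ± 0.22, adjusted p = 0.0164). Neither pair of groups overlapped. KCNQ, the fly gene for the slow M-type channel, rose from 25.0, 28.9, 28.0, 28.1 and 30.2 to 41.4, 48.3, 47.9, 39.2 and 40.6 CPM and in the mutant from 28.0, 29.4, 29.7 and 31.4 to 38.2, 46.9, 51.6 and 33.6 CPM. These did not overlap either (0.63 ± 0.17, adjusted p = 0.00296, and 0.52 ± 0.19, adjusted p = 0.0245), and 27.43% of KCNQ exon bases lie over exons of other genes on the opposite strand. Shaker itself, Sh, the A-type channel, was at 957, 602, 410.2, 875 and 862 CPM in wild-type inputs and 1130, 1178, 1001, 1002 and 669.7 CPM with Fmr1 and at 392, 539, 450.1 and 409.7 CPM in inputs and 1070, 782, 901 and 475 CPM with Fmr1 in the mutant. The groups overlapped in both, with 0.43 ± 0.30 (adjusted p = 0.247) in the wild type and 0.85 ± 0.33 (adjusted p = 0.0387) in the mutant. The non-inactivating channel Shaw was at 163, 136, 121, 122 and 133 CPM in inputs and 182, 156, 157, 191 and 161 CPM with Fmr1, and at 95.7, 109, 98.9 and 73.9 CPM in inputs and 165, 141, 127 and 127 CPM with Fmr1 in the mutant. It passed in the mutant (0.57 ± 0.17, adjusted p = 0.00741), where groups did not overlap, and not in the wild type (0.33 ± 0.15, adjusted p = 0.0738). Not called in either genotype were Shal (0.20 ± 0.20 and 0.48 ± 0.23), the seizure channel sei (0.30 ± 0.15 and 0.38 ± 0.17) and qvr (−0.36 ± 0.22 and −0.24 ± 0.25).

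Of the channels opened by calcium or sodium ions, SK and SLO2 rose over input and slo did not pass. The small-conductance channel SK was at 238, 166, 117, 220.2 and 223 CPM in wild-type inputs and 648, 570.1, 447, 488 and 384 CPM with Fmr1, and at 112, 147, 131 and 119 CPM in inputs and 447, 316, 368 and 224 CPM with Fmr1 in the mutant. Its groups did not overlap, at 1.40 ± 0.24 (adjusted p = 1.98e-05) and 1.41 ± 0.26 (adjusted p = 9.02e-05). SLO2 rose from 163, 157, 138, 142 and 141 to 407, 441, 370.0, 335 and 264 CPM and in the mutant from 118, 133, 125 and 106 to 262, 290.5, 322 and 189 CPM. No library overlapped, at 1.29 ± 0.23 (adjusted p = 3.8e-05) and 1.14 ± 0.26 (adjusted p = 0.000618). The large-conductance channel slo ran from 345 to 708 CPM in wild-type inputs and 748 to 936 CPM with Fmr1, at 0.59 ± 0.25 (adjusted p = 0.0513), although these ranges did not overlap. With the replicate number as a block, wild-type slo passed at 0.65 (adjusted p = 0.0108).

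The 4 calcium channel genes rose by similar amounts over input in both genotypes. Ca-alpha1D, the L-type pore subunit, went from 299, 276, 222, 271 and 254 to 669.9, 678, 527, 621 and 462 CPM in the wild type and from 184, 219, 205 and 148 to 388, 456, 486 and 265 CPM in the mutant. The T-type Ca-alpha1T went from 772, 696, 629.7, 634 and 649.5 to 1093, 2029, 1659, 1122 and 1264 CPM and from 399.8, 453, 481 and 383 to 760.2, 1146, 1367 and 675 CPM. All Fmr1 libraries lay above all inputs for both, at 1.16 ± 0.24 and 1.08 ± 0.24 in the wild type (adjusted p = 0.000195 and 0.000395) and 1.08 ± 0.26 and 1.20 ± 0.26 in the mutant (adjusted p = 0.00154 and 0.000526). The alpha2delta subunit stj, which traffics calcium channels to synapses, went from 203, 189, 164, 166 and 159 to 383, 438, 395, 365 and 346 CPM and in the mutant from 122, 141, 128 and 106 to 258, 279, 268 and 214 CPM. Its relative stol went from 114, 114, 84.3, 176 and 262 to 388, 492, 406, 316 and 247 CPM and from 114, 119, 109 and 152 to 303, 341, 358 and 185 CPM. For stj no library overlapped (1.13 ± 0.19, adjusted p = 1.99e-05, and 1.03 ± 0.21, adjusted p = 0.000259). For stol, input replicate 7 of the wild type lay above Fmr1 replicate 7, and the changes were 1.30 ± 0.27 (adjusted p = 0.000202) and 1.27 ± 0.30 (adjusted p = 0.000994).

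The hyperpolarisation-activated cation channel Ih, a pacemaker channel, was at 641, 433, 441, 446 and 410.4 CPM in wild-type inputs and 526, 681, 686, 644 and 518 CPM with Fmr1, groups that overlapped. In the mutant it rose from 292, 340.3, 330.0 and 265 to 553, 598, 607 and 472 CPM, without overlap. It passed in the mutant (0.86 ± 0.19, adjusted p = 0.000507) and not in the wild type (0.37 ± 0.17, adjusted p = 0.0727), a difference that did not pass when tested (below).

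Inward rectifiers, which carry potassium into cells and in flies are best known from renal tubules, were on the low side. Irk2 was at 46.4, 37.8, 72.0, 70.0 and 47.4 CPM in wild-type inputs and 25.9, 17.1, 40.8, 46.2 and 32.5 CPM with Fmr1, and at 57.1, 63.6, 63.1 and 82.4 CPM in inputs and 43.3, 39.3, 36.8 and 66.2 CPM with Fmr1 in the mutant. Groups overlapped, and Irk2 fell in the wild type (−0.76 ± 0.27, adjusted p = 0.0205) and was at −0.52 ± 0.30 in the mutant (adjusted p = 0.154, and −0.55 with adjusted p = 0.00856 with the replicate number as a block). Irk3 fell in both, from 23.6, 19.8, 17.4, 16.6 and 20.5 to 11.3, 12.0, 12.9, 8.48 and 15.8 CPM and in the mutant from 17.8, 17.8, 17.5 and 16.8 to 11.3, 10.9, 9.12 and 13.8 CPM. These did not overlap, at −0.69 (adjusted p = 0.00182) and −0.63 (adjusted p = 0.00996). Irk1 was at 4.72 to 6.77 CPM in wild-type inputs and 2.48 to 7.03 CPM with Fmr1, with no call.

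Tandem-pore potassium channels, which carry the background leak, went in both directions. Task6 rose from 196, 174, 157, 151 and 141 to 319, 397, 343, 304 and 262 CPM in the wild type and from 135, 146, 136 and 113 to 252, 268, 342 and 184 CPM in the mutant. Its relative Task7 fell from 33.8, 44.2, 44.7, 36.8 and 50.4 to 19.3, 14.9, 15.1, 22.2 and 22.1 CPM and in the mutant from 48.3, 36.3, 39.7 and 38.1 to 26.8, 15.3, 13.0 and 23.3 CPM. Neither gene overlapped between the groups, at 0.99 ± 0.17 against −1.17 ± 0.18 in the wild type (adjusted p = 2.11e-05 and 6.19e-06) and 0.98 ± 0.19 against −1.05 ± 0.20 in the mutant (adjusted p = 0.000116 and 0.000115). Ork1, the open rectifier, rose from 5.22, 6.69, 7.47, 6.59 and 7.22 to 8.43, 11.6, 15.3, 8.14 and 12.8 CPM and in the mutant from 7.33, 7.54, 8.71 and 9.51 to 11.3, 14.8, 18.8 and 15.2 CPM. These did not overlap (0.75 ± 0.19, adjusted p = 0.00209, and 0.86 ± 0.21, adjusted p = 0.00156). The sleep-related channel sand did not pass (0.33 ± 0.23 and 0.54 ± 0.26).

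Some calls over input rested on single libraries. In the mutant, Sh lost its call without any of 6 libraries, all but input 7 and Fmr1 7 (adjusted p from 0.0502 to 0.167), KCNQ without input or Fmr1 replicate 2 or 3 (0.092 to 0.128) and Elk without input replicate 2 or 3 or Fmr1 replicate 2 (0.0513 to 0.106). NaCP60E (0.0589) and Shab (0.0541) lost theirs without mutant Fmr1 replicate 2, Shaw (0.0599) without Fmr1 replicate 1 and Irk3 (0.055) without input replicate 1. In the wild type TEH2 lost its call without input replicate 1 (0.0543) and Irk2 without input replicate 3 or 5 or Fmr1 replicate 1 or 2 (0.05 to 0.0702). The other calls over input held in each of these repeats.

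Channel mRNAs were also above input in the libraries made with IgG, where no Fmr1 antibody was present. The log2 ratio of mean CPM in IgG over input, given without a test, was above 0 for 28 of 35 channel genes in the wild type (median 0.63) and 26 in the mutant (median 0.51), with medians of −0.03 and −0.07 over 11300 genes. Without wild-type IgG replicate 7 the wild-type values were 25 genes and 0.34. The ratio ranged from −1.11 for Task7 to 1.40 for para in the wild type, and para, unc80, SLO2 and Ca-alpha1D were above 1 in both genotypes. Without wild-type IgG replicate 7, para was at 0.91, SLO2 at 0.90 and Ca-alpha1D at 0.90 in the wild type, and unc80 was then the highest channel gene at 1.20. Fold changes over input also followed transcript length. Spearman's rho with exon length was 0.577 over the 35 channel genes and 0.672 over 10432 protein-coding genes in the wild type, a description over genes that share libraries, and 32 of 35 channel genes were longer than the median coding gene (2078 exon bases, against a median of 5351 for channels). The part of length in the fold changes over input was not tested.

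Against IgG, fewer channel mRNAs stood out. In the wild type 6 of 35 were higher in the Fmr1 libraries, against 16.4% of all genes tested, and 2 were lower, against 17%. In the mutant 6 were higher, against 10.8% of all genes, and none was lower, against 9.61%. The higher genes were tipE, na, unc79, Hk, SK and Task6 in the wild type and tipE, na, Shal, Hk, Ork1 and Task6 in the mutant, and the lower ones were KCNQ and Irk1. With RLE size factors, which moved the median of all genes to −0.24 in the wild type and −0.15 in the mutant, the wild type had 2 higher and 3 lower channel genes and the mutant 3 higher. Every Fmr1 library lay above every IgG library for 1 gene in the wild type (8.07% of all genes) and 6 in the mutant (9.71%), and below for none (3.85% and 6.41%). The median log2 fold change was 0.04 in the wild type and 0.40 in the mutant.

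The sodium channel subunit tipE had the highest fold change over IgG of the channel genes in the wild type. It was at 81.7, 77.5, 67.7, 40.1 and 65.1 CPM in the wild-type IgG libraries and 48.9, 59.7, 79.0 and 45.2 CPM in those of the mutant, beside the Fmr1 values given above. No IgG library reached the lowest Fmr1 library of its genotype. The log2 fold change was 1.16 ± 0.21 (2.24-fold, adjusted p = 0.000123) in the wild type and 1.01 ± 0.24 (2.01-fold, adjusted p = 0.00331) in the mutant. On the same strand, 19.03% of tipE exon bases are shared with exons of another gene, CG18675.

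Hk, which stood next in the wild type and first in the mutant, had 432, 625, 465, 413 and 814 CPM in wild-type and 405, 457, 445 and 369 CPM in mutant IgG libraries. Wild-type IgG replicate 7 lay inside the range of the Fmr1 libraries, and in the mutant the groups did not overlap. The changes were 0.85 ± 0.22 (adjusted p = 0.00357) and 1.03 ± 0.25 (adjusted p = 0.00392). Task6 had 192, 198, 162, 189.6 and 301 CPM in wild-type and 147, 134, 162 and 182 CPM in mutant IgG libraries. Again only IgG replicate 7 of the wild type reached the Fmr1 range, with 0.62 ± 0.17 (adjusted p = 0.00562) and 0.73 ± 0.19 (adjusted p = 0.00784). In leaving out each library in turn, tipE, Hk and Task6 in the wild type and tipE and Hk in the mutant kept their calls, and Task6 in the mutant had adjusted p = 0.0505 without Fmr1 replicate 2. Among 10 other settings, tipE in the wild type passed in all, and tipE in the mutant (adjusted p = 0.101) and Hk in both genotypes (0.319 and 0.347) failed only within replicates 1, 5 and 7. Wild-type Task6 failed in 4, with RLE factors (0.41, adjusted p = 0.0677), DESeq2 (0.40, 0.0658), only the groups compared (0.53, 0.0789) and replicates 1, 5 and 7 (0.24, 0.542). Mutant Task6 failed in 2, with only the groups compared (0.0894) and replicates 1, 5 and 7 (0.637).

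**Figure D2:**
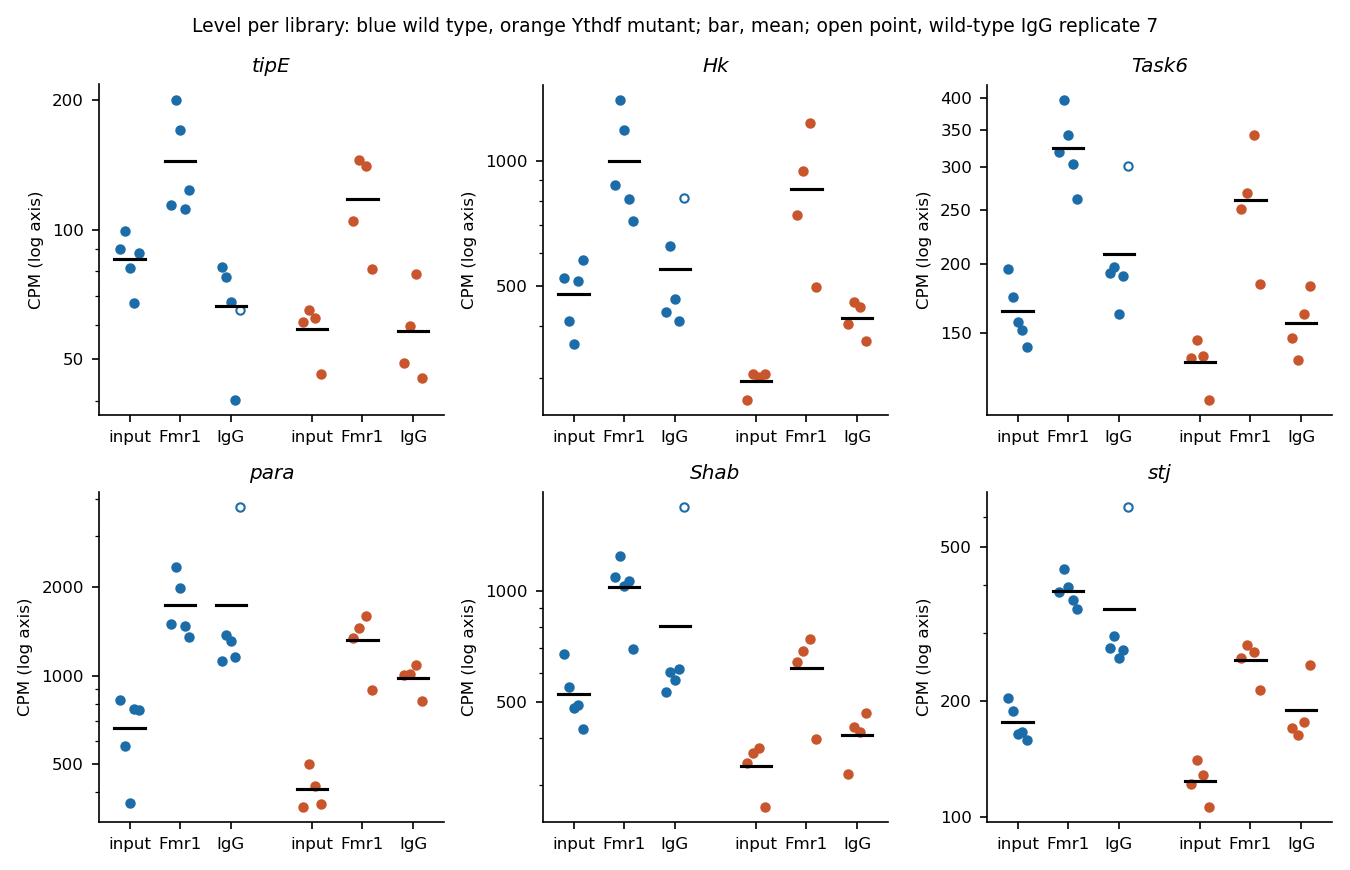
Level of 6 channel genes in each library (CPM, log axis) for input, Fmr1 and IgG libraries of the wild type (blue) and the Ythdf mutant (orange), with the mean of each group as a bar. The open point is wild-type IgG replicate 7, which for para, Shab and stj lies above every Fmr1 library and for tipE lies among the other IgG libraries.

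The remaining calls over IgG depended on single libraries and on the processing. Of the 10 other settings, na, unc79 and SK in the wild type each failed in 6, and na in the mutant in 7. The leak channel na was at 168, 320.1, 222, 178 and 272 CPM in wild-type and 118, 213, 269.6 and 179 CPM in mutant IgG libraries, overlapping the Fmr1 libraries in both. It passed in both (0.70 ± 0.23, adjusted p = 0.0179, and 0.71 ± 0.25, adjusted p = 0.0455) and lost the call without wild-type Fmr1 replicate 2 (0.53, adjusted p = 0.0805) or IgG replicate 5 (0.56, adjusted p = 0.0926). In the mutant it was lost without Fmr1 replicate 2 or 3 or IgG replicate 1, 2 or 7 (adjusted p from 0.0863 to 0.221). Its partner unc79 was at 351, 468, 459.5, 546 and 819.6 CPM in wild-type and 385, 384, 627 and 587 CPM in mutant IgG libraries and passed in the wild type (0.44 ± 0.17, adjusted p = 0.0477), a call lost without any library but IgG replicate 7 (adjusted p from 0.0501 to 0.13), with 0.40 ± 0.19 in the mutant. SK was at 240.2, 273, 233, 238 and 600.5 CPM in wild-type and 212, 215, 191 and 226 CPM in mutant IgG libraries. It passed in the wild type (0.65 ± 0.24, adjusted p = 0.0329) and not in the mutant (0.68 ± 0.27, adjusted p = 0.0682), and the wild-type call was lost without Fmr1 replicate 1 or 2 or IgG replicate 1, 2, 3 or 5 (adjusted p from 0.0695 to 0.112).

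Shal and Ork1 passed over IgG in the mutant. Shal was at 262, 266, 258, 191 and 254 CPM in inputs, 236, 392, 376, 217 and 192 CPM with Fmr1 and 144, 200.1, 179, 189.6 and 255 CPM with IgG in the wild type. Mutant Shal was at 211, 186, 189 and 158 CPM in inputs, 238, 306, 336 and 154 CPM with Fmr1 and 163, 153, 189 and 127 CPM with IgG. Fmr1 and IgG libraries overlapped in both, at 0.52 ± 0.21 (adjusted p = 0.0544) and 0.71 ± 0.24 (adjusted p = 0.0307). Ork1 was at 9.61, 7.50, 14.8, 7.58 and 11.8 CPM in wild-type IgG libraries, overlapping the Fmr1 libraries, and 9.79, 4.84, 10.8 and 8.58 CPM in the mutant, below its Fmr1 libraries. It had 0.01 ± 0.23 (adjusted p = 0.977) and 0.79 ± 0.27 (adjusted p = 0.0353), with 3, 3, 14 and 30 counts in the mutant IgG libraries. The mutant call of Shal was lost without Fmr1 replicate 1, 2 or 3 or IgG replicate 1, 2 or 7 (adjusted p from 0.0658 to 0.174) and that of Ork1 without Fmr1 replicate 2 or 3 or IgG replicate 1, 2 or 7 (adjusted p from 0.0542 to 0.146). Of the 10 other settings Shal failed in 6 (adjusted p from 0.0519 to 0.566) and Ork1 in 7 (from 0.0722 to 0.507).

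KCNQ and Irk1 were lower with Fmr1 than with IgG in the wild type. KCNQ was at 33.6, 62.5, 43.8, 63.9 and 93.6 CPM in wild-type and 62.0, 35.5, 44.2 and 47.8 CPM in mutant IgG libraries, and Irk1 at 0, 5.00, 7.73, 20.6 and 15.2 CPM in the wild type and 3.26, 1.61, 3.10 and 6.87 CPM in the mutant. With Fmr1, Irk1 was at 5.44, 2.48, 3.63, 7.03 and 6.70 CPM in the wild type and 5.21, 2.40, 3.19 and 7.10 CPM in the mutant, and its inputs lay from 4.72 to 6.77 and from 4.23 to 6.47 CPM. IgG replicates 5 and 7 were high for Irk1 and replicate 1 had no count, and the wild-type IgG counts were 0, 2, 12, 19 and 94. The changes were −0.54 ± 0.18 for KCNQ (adjusted p = 0.0215) and −1.25 ± 0.37 for Irk1 (adjusted p = 0.0105), and both calls were lost without IgG replicate 7 (−0.27 with adjusted p = 0.24, and −1.05 with adjusted p = 0.082). KCNQ also failed with only the groups compared (adjusted p = 0.076) and within replicates 2 and 3 (−0.05). In the mutant they were at −0.12 ± 0.21 and −0.06 ± 0.48.

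Wild-type IgG replicate 7 differed from the other wild-type IgG libraries in its channel mRNAs. The 35 genes summed to 26170 CPM there and to 9847, 11690, 10840 and 10900 CPM in replicates 1, 2, 3 and 5. It was the highest of the 5 libraries for 26 of the 35 genes, against 25.3% of 11271 genes, and 25 of 35 were over 1.5 times the mean of the other 4, against 26.1%. Sh was at 956, 910.4, 923, 962 and 3279 CPM, para at 1124, 1378, 1308, 1159 and 3759 CPM and Shab at 533, 605, 574, 616 and 1685 CPM in the wild-type IgG libraries. Neuronal markers summed to 9255 CPM in replicate 7 and to 6299 to 8366 CPM in the other 4, and glial markers to 1478 CPM against 2783 to 3239 CPM. Photoreceptor markers summed to 9585 CPM against 12480 to 17800 CPM and muscle markers to 39430 CPM against 42250 to 78860 CPM, each the lowest of the 5 libraries. Of its uniquely placed reads 47.7% fell in no gene, against 17.6% to 36.6% in the other 4, and the excess over the other libraries rose with exon length among channel genes (Spearman's rho 0.715 over 35, 0.287 over 10306 coding genes). The part of these features in its channel levels was not tested.

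**Figure D3:**
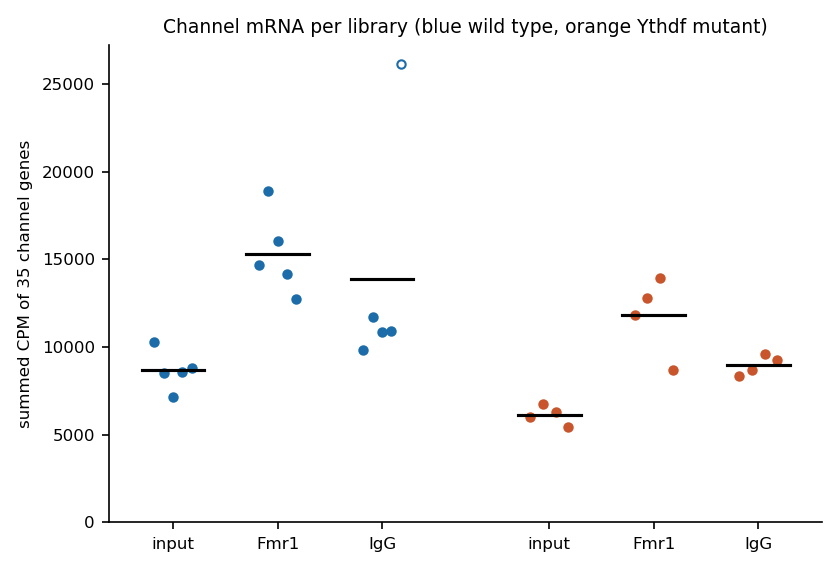
Summed CPM of the 35 channel genes in each library, by genotype and kind of library, with group means as bars and wild-type IgG replicate 7 as the open point. That library is at 26170 CPM, above all Fmr1 libraries, while the other 4 wild-type IgG libraries lie from 9847 to 11690 CPM.

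Without that library more channel mRNAs stood above IgG in the wild type, 12 of 35 against 16.5% of all genes, and none below, against 13.2%. The median of the channel genes was then 0.41, with 31 of 35 above 0, and 0.00 over all genes. The 12 were tipE, na, unc79, Shab, Shaw, Shal, Hk, qvr, slo, SK, stj and Task6. SK had 1.04 ± 0.20 (adjusted p = 0.000295), Hk 1.04 ± 0.22 (adjusted p = 0.000758), Task6 0.81 ± 0.16 (adjusted p = 0.000454) and Shab 0.80 ± 0.18 (adjusted p = 0.00158). Further values were 0.78 ± 0.22 for qvr, 0.65 ± 0.15 for unc79, 0.49 ± 0.14 for stj, 0.43 ± 0.17 for slo and 0.41 ± 0.15 for Shaw. For slo this was a change of direction from −0.08 ± 0.25. The pores para (0.47 ± 0.21, adjusted p = 0.0879), Sh (0.08 ± 0.22), Ca-alpha1D (0.25 ± 0.17) and Ca-alpha1T (0.41 ± 0.20) did not pass, and tipE was at 1.17 ± 0.24.

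**Figure D4:**
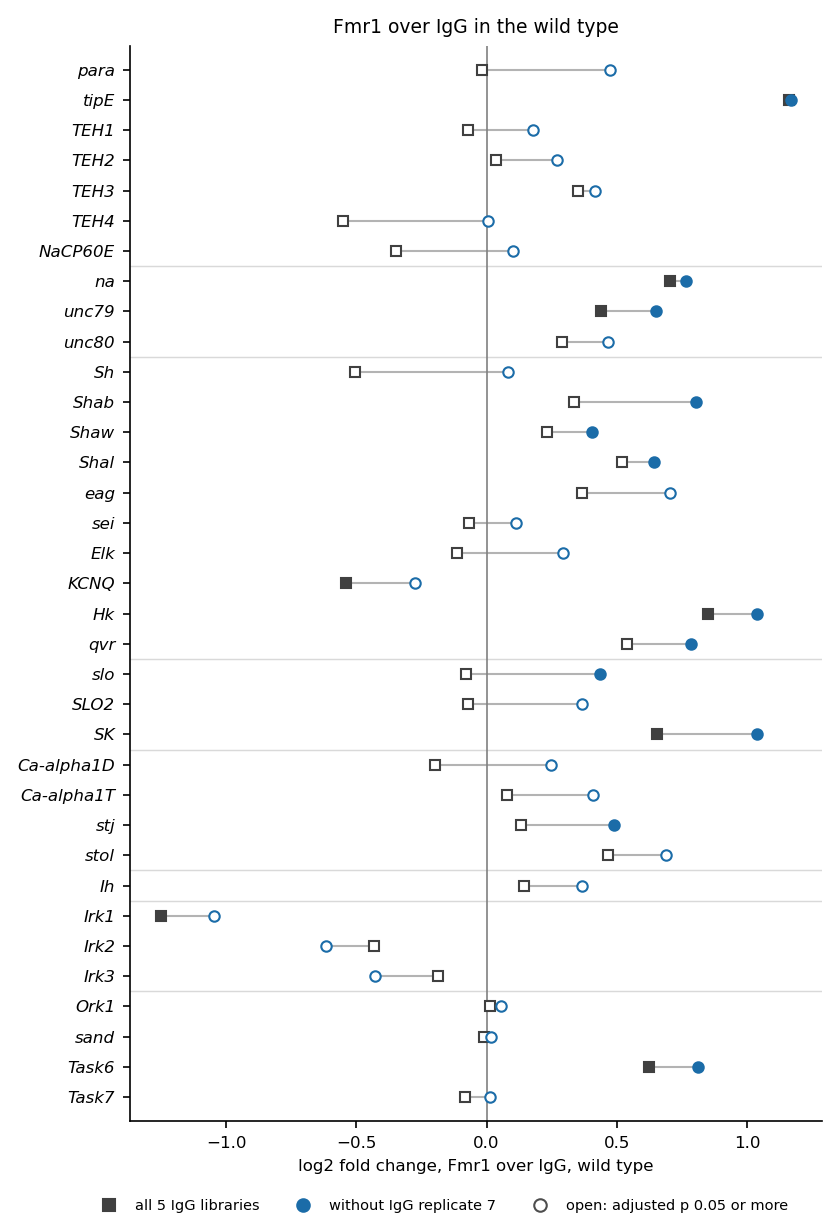
Log2 fold change of Fmr1 over IgG in the wild type for each channel gene with all 5 IgG libraries (squares) and without IgG replicate 7 (circles), filled where the adjusted p was under 0.05. Filled symbols on the right number 6 with all libraries and 12 without replicate 7, and the tipE values of 1.16 and 1.17 nearly coincide.

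The binding of channel mRNAs was then compared between genotypes. No channel gene differed between mutant and wild type in Fmr1 over IgG, where 0% of all genes passed, or in Fmr1 over input, where 0.00872% did, which is 1 gene. Over IgG the smallest p-values were those of Ork1 (0.77 ± 0.35, unadjusted p = 0.0365), Irk1 (1.19 ± 0.61, unadjusted p = 0.0592) and Sh (0.74 ± 0.45, unadjusted p = 0.11). The mutant Sh libraries with IgG were at 786, 699, 596 and 665 CPM. In the wild type, IgG replicate 7 held 3279 CPM of Sh and the others 910.4 to 962 CPM. Without that library the differences were 0.73 ± 0.39 for Ork1, 0.98 ± 0.66 for Irk1 and 0.15 ± 0.32 for Sh. Over input the smallest p-values were those of Ih (0.50 ± 0.25, unadjusted p = 0.0588), TEH2 (0.52 ± 0.28, unadjusted p = 0.0722) and Hk (0.47 ± 0.32, unadjusted p = 0.162). No channel gene over input and only Ork1 over IgG had an unadjusted p under 0.05. With IgG, Ih lay from 413 to 860.0 CPM in the wild type and from 415 to 462 CPM in the mutant, and TEH2 from 103 to 200.5 and from 71.3 to 108 CPM.

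The size of the genotype differences that these libraries leave possible is wide. For tipE the difference over IgG was −0.16 ± 0.32 with a 95% interval of −0.78 to 0.46, for Hk 0.18 ± 0.33 (−0.47 to 0.82) and for Task6 0.10 ± 0.26 (−0.40 to 0.61). For para it was 0.45 ± 0.41 (−0.35 to 1.25) over IgG and 0.30 ± 0.41 (−0.50 to 1.09) over input. The median difference over IgG was 0.20 over the channel genes, with 29 of 35 above 0, and −0.06 with 12 above 0 without wild-type IgG replicate 7. Over input the median was 0.11. In tests by DESeq2 and limma voom no channel gene passed in either comparison.

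In the input lysate, channel mRNAs were lower in the mutant than in the wild type for 32 of 35 genes, and 2 passed the test. The median log2 fold change of the channel genes was −0.46, against 0.04 over all genes tested. Longer genes had lower values, with Spearman's rho with exon length of −0.538 over the 35 genes and −0.19 over 10432 protein-coding genes. With the longest 3' UTR rho was −0.594 and −0.237. Of uniquely placed reads, 17.9, 23.9, 27.3 and 18.2% fell in no gene in mutant inputs. Wild-type inputs had 9.24, 19.9, 18.2, 12.8 and 13.2%, which overlap. The part of these features in the channel levels was not tested. The pacemaker channel Ih fell from 474 ± 94.3 CPM (SD, n = 5) to 307 ± 34.8 CPM (n = 4), by −0.63 ± 0.18 (adjusted p = 0.0343), and the subunit TEH2 from 211 ± 43.3 to 133 ± 12.8 CPM, by −0.66 ± 0.20 (adjusted p = 0.0438). Lower calls made up 2.35% of all genes and higher calls 3.33%. For 17 channel genes every mutant input was below every wild-type input, which held for 9.98% of all genes tested, and for none was every one above, against 11.2%. Both calls were lost without wild-type input replicate 1 (Ih −0.50 with adjusted p = 0.123, TEH2 −0.54 with adjusted p = 0.149) and without mutant input replicate 2, 3 or 7, and that of TEH2 also without wild-type input replicate 7 (adjusted p from 0.0652 to 0.149 over these).

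**Figure D5:**
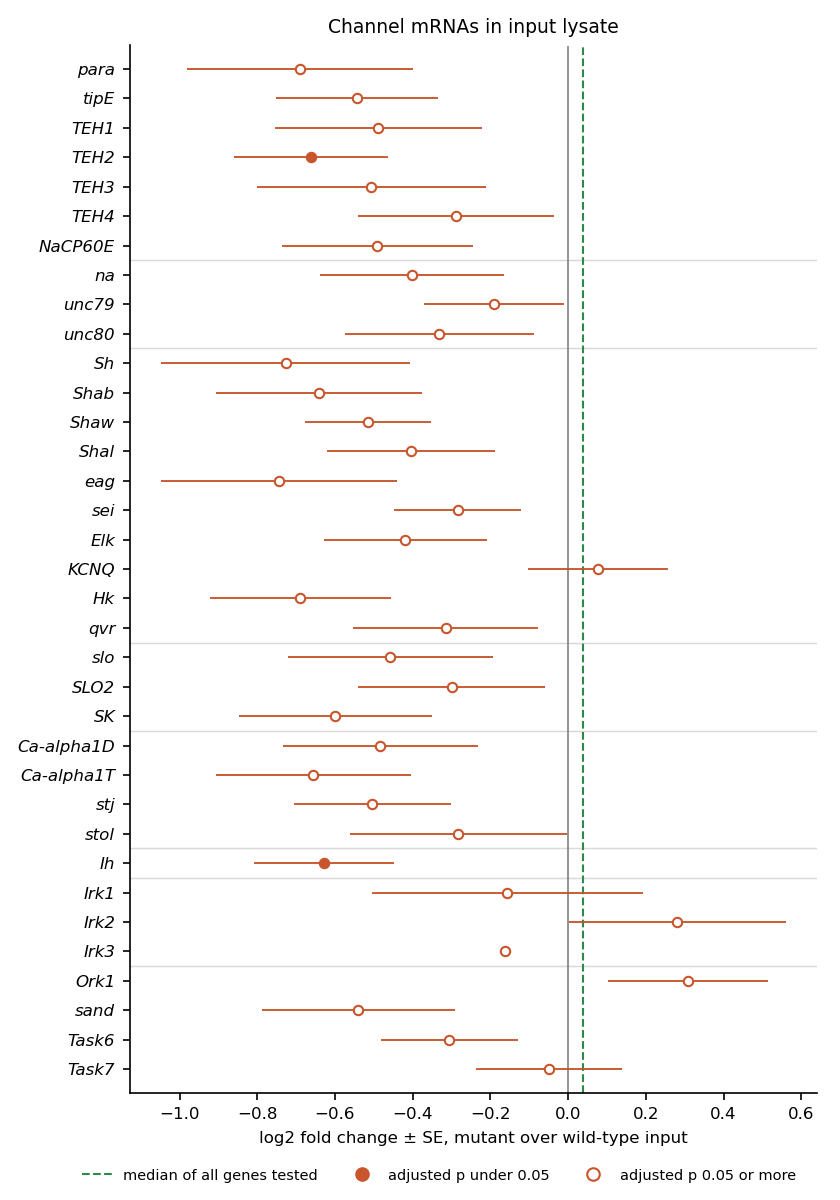
Log2 fold change of each channel gene in mutant over wild-type inputs with its SE (4 against 5 libraries), filled where the adjusted p was under 0.05, and Irk3 without an error bar. Of 35 points 32 lie left of 0, while the median of all genes tested (dashed) is 0.04.

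By role, all 7 sodium channel genes were lower (median −0.51), as were the 3 leak channel genes (−0.33), the 3 ion-activated potassium channels (−0.46) and the 4 calcium channel genes (−0.49). Among the lowest were eag (−0.74 ± 0.30, adjusted p = 0.167), Sh (−0.73 ± 0.32), Hk (−0.69 ± 0.23), para (−0.69 ± 0.29) and Ca-alpha1T (−0.66 ± 0.25), none of which passed. The 3 genes above 0 were KCNQ (0.08 ± 0.18), Irk2 (0.28 ± 0.28) and Ork1 (0.31 ± 0.21). Among mutant inputs the 35 genes summed to 6033, 6738, 6323 and 5435 CPM, and among wild-type inputs to 10320, 8504, 7165, 8582 and 8835 CPM. On this TMM scale the lowest wild-type library was above all 4 mutant libraries. Without that scaling they made up 0.635, 0.746, 0.686 and 0.615% of gene counts in mutant inputs. In wild-type inputs they made up 1.02, 0.836, 0.698, 0.868 and 0.873%, so these shares overlap.

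The number of channel genes called in inputs differed between fits. When input libraries alone were filtered, scaled and fitted, 21 channel genes were lower and none higher, against 11.1% lower and 10.6% higher among 10435 genes, with the same median of −0.46. With the replicate number as a block 12 were lower (5.92% of all genes) and none higher (7.81%). The genes lower with inputs alone included Ca-alpha1T (−0.66 ± 0.11, adjusted p = 0.00134), eag (−0.75 ± 0.15, adjusted p = 0.00395), Hk (−0.69 ± 0.14, adjusted p = 0.00445), TEH2 (−0.66 ± 0.14, adjusted p = 0.00575), stj (−0.51 ± 0.11, adjusted p = 0.00618), tipE (−0.54 ± 0.13, adjusted p = 0.0101) and para (−0.69 ± 0.22, adjusted p = 0.0463). Markers of several cell types were lower in mutant inputs too. All 12 neuronal markers had counts in both groups, 11 of 12 were lower in mutant inputs with a median of −0.41 and none called, and they summed to 7738 to 11270 CPM in wild-type and 7019 to 7672 CPM in mutant inputs. The channel sum per neuronal marker sum was 0.916, 0.951, 0.926, 0.907 and 0.799 in wild-type inputs and 0.786, 0.899, 0.873 and 0.774 in mutant inputs, which overlap. Of 9 photoreceptor markers 8 were lower (median −0.34), with sums of 16230 to 19870 CPM in wild-type and 14080 to 15520 CPM in mutant inputs, which do not overlap. Of 8 muscle markers 7 were lower (median −0.32), as were 7 of 8 glial markers (median −0.15) and 3 of 4 tested hemocyte markers (median −0.18), and none of these passed. Sums of muscle markers (29960 to 37160 and 20050 to 30710 CPM) and of glial markers (3693 to 4629 and 3422 to 3833 CPM) overlapped between genotypes. Fat body markers were higher for 5 of 7 with 1 called, and summed to 676 to 903 CPM in wild-type and 1100 to 1214 CPM in mutant inputs, and the part of these markers in the channel levels was not tested.

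In the IgG libraries 2 channel genes were lower in the mutant, against 2.18% of all genes, and none was higher, against 2.09%. The delayed rectifier Shab was at 533, 605, 574, 616 and 1685 CPM in the wild type and 319.8, 429, 417 and 468 CPM in the mutant, and stj at 274, 295, 258, 271 and 637 CPM in the wild type and 169.7, 163, 177 and 248 CPM in the mutant. The mutant libraries lay below all wild-type libraries for both genes, as for 5 channel genes in all (1.43% of all genes, with none above against 2.28%), by −0.98 ± 0.27 (adjusted p = 0.0372) and −0.88 ± 0.21 (adjusted p = 0.0162). Without wild-type IgG replicate 7 these were −0.51 ± 0.19 (adjusted p = 0.209) and −0.52 ± 0.15 (adjusted p = 0.0755), no channel gene passed (0.776% of all genes higher and 0.67% lower), and the median went from −0.47 to −0.24. Shab also lost its call without any mutant IgG library (adjusted p from 0.0657 to 0.0957) and stj without mutant IgG replicate 3 (0.0509).

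Genes that work beside these channels were counted for the same comparisons. Over input in the wild type, 23.2% of all genes tested were higher and 25.6% lower. There, 8 of 12 tested TRP channels and 6 of 7 chloride channels were higher. The same held for 4 of 7 genes of intracellular calcium handling and 8 of 12 channel regulators and anchors, with none lower in these lists. Of the sodium pump and cation cotransport genes 3 were higher and 3 lower. Against the wild-type IgG libraries, where 16.4% of all genes were higher and 17% lower, 6 of 12 channel regulators and anchors were higher. So were 3 of 12 TRP channels, with 1 lower, 3 of 7 calcium handling genes, 2 of 7 pump and cotransport genes and 1 of 7 chloride channels. The regulators included Cam, which encodes calmodulin (1.34 ± 0.27, adjusted p = 0.000367), and CASK, a synaptic scaffold kinase (0.94 ± 0.19, adjusted p = 0.000463). The pore gene of presynaptic calcium channels, cac, was at 0.94 ± 0.29 in the wild type (adjusted p = 0.0147) and 1.01 ± 0.33 in the mutant (adjusted p = 0.0299). None of the 4 listed calcium channel genes passed over IgG in either genotype with all libraries. Without wild-type IgG replicate 7, stj passed in the wild type (0.49 ± 0.14, adjusted p = 0.00761), and cac is not given for that setting. Of the 12 neuronal markers 11 were higher over IgG in the wild type (median 0.96, against 16.4% of all genes). In the mutant 10 were higher (median 0.84, against 10.8% of all genes). The channel medians were 0.04 and 0.40. The wild-type channel median was higher without IgG replicate 7 (above), a setting not given here for the markers. Photoreceptor markers were higher for 5 of 9 in the wild type and 3 of 9 in the mutant. All 7 fat body markers were lower in both (medians −3.73 and −4.36), against 17% and 9.61% of all genes, and of the 12 neuronal markers none was.

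The comparisons were repeated within replicates 2 and 3 and within replicates 1, 5 and 7. The mutant has no replicate 5, so its second set is replicates 1 and 7 only. These sets are small and unequal between genotypes, so their counts of calls are not directly comparable. Replicates 2 and 3 stood highest with Fmr1 for TEH3, unc80 and eag (above). The split can therefore not be taken as independent of these data. The second set holds wild-type IgG replicate 7, without which all remaining replicates together gave 12 higher channel genes and none lower over IgG. Within replicates 2 and 3 alone, wild-type Fmr1 over IgG gave 19 higher channel genes and 1 lower, against 20.2% and 15.6% of all genes, and 15 were higher in the mutant, against 16.1%, with none lower, against 10%. Within replicates 1, 5 and 7, 1 was higher and 2 lower in the wild type, against 4.72% and 13.3%, and none passed in the mutant (0.396% and 2.45% of all genes). Over input, wild-type replicates 2 and 3 gave 25 higher and 5 lower genes (25.3% and 29.4% of all genes), and 1, 5 and 7 gave 9 and 2 (13.4% and 19.2%). In the mutant these were 26 and 4 (26.1% and 33.8%) and 6 and 1 (5.48% and 13.4%). In inputs 3 were lower in the mutant within replicates 2 and 3 (3.96% of all genes, and 5.55% higher), with a median of −0.29, and none passed within the others (0.835% lower and 2.03% higher), with a median of −0.47. The difference between the sets was not tested.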

How the data were processed

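RNA of input, Fmr1 and IgG libraries was sequenced from rRNA-depleted, strand-specific libraries. The authors deposited raw counts per gene for 27 libraries, and bcl2fastq 2.20, Trim Galore and STAR are named in the submitters' processing notes. The counter, the annotation build, the strand setting and any use of molecular identifiers are not given in the sources used here. Reads not assigned to a gene for any reason, 23.8% to 74.7% of all reads counted, were left out. They include ambiguous reads as well as reads in no gene, so this share differs from the one given for uniquely placed reads. The labels number the replicates without saying whether they came from separate collections of flies, so p-values measure only the spread between these libraries, which may be technical. Values rest on the counts alone and no library was a copy of another.

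Counts were tested with edgeR 4.0.16 in R 4.3.3 (TMM factors, robust quasi-likelihood fit of 6 groups, at least 10 counts by edgeR's filter, Benjamini-Hochberg adjustment over 11469 genes, called at 0.05). Intervals are 95%. Group membership came from the labels. Alternatives were RLE and upper-quartile factors, other filters, DESeq2 1.42.0, limma 3.58.1 with voom, fits of only the groups compared, replicate subsets, each library left out, and the replicate number as a block. The protocol in the labels takes input, Fmr1 and IgG portions from 1 lysate, but the labels do not tie a number to a lysate. Pairing was judged by the correlation of deviations. The main fit, with its SE and adjusted p, used no pairing, and the replicate number entered only as a block among the alternatives. Same-numbered libraries deviated together in Fmr1 and input (correlations 0.175 to 0.473 in the wild type, 0.138 to 0.495 in the mutant) and in mutant Fmr1 and IgG (0.181 to 0.318). Fits were run on simulated counts with planted changes for wild-type Fmr1 over IgG, wild-type Fmr1 over input and inputs between genotypes. The outcome is not given here. Simulated libraries were independent and none was set apart from its group. That run therefore cannot show how pairing or a deviating library acts on the fits, nor does it cover the genotype differences of the pull-downs. Gene lengths and overlaps came from Ensembl BDGP6.54, which matched 17710 of 17807 IDs.

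The genes and lists were chosen with earlier results of these data known. Every member is accounted for, and values in every library are given for those called in a comparison or, where fewer than 3 were called, for the 3 with the smallest p.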

Additional observations from a re-analysis of the deposited data

Results flagged for a closer look

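Of 210 groups of libraries examined (35 genes in 6 groups), 22 held a library whose distance to its nearest neighbour took up most of the group's range. Chance alone marks about 1 in 20 groups, and genes of a library are not independent. In 13 cases the library was wild-type IgG replicate 7, high each time. It held 3759 CPM of para (the others 1124 to 1378), 2661 of NaCP60E, 3279 of Sh (others 910.4 to 962), 1685 of Shab and 129.7 of Elk. It also held 1897 CPM of slo, 757.6 of SLO2, 600.5 of SK, 1382 of Ca-alpha1D, 2455 of Ca-alpha1T, 637 of stj, 860 of Ih and 301.1 of Task6.

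The other 9 were scattered over libraries. TEH3 was high in mutant input 2 (26.67 CPM), slo in mutant input 2 (483.8 CPM), stj in mutant IgG 7 (248.4 CPM) and Ih in wild-type input 1 (641.2 CPM). NaCP60E was low in mutant Fmr1 7 (618.4 CPM), Shal in wild-type input 5 (191.1 CPM), sei in mutant IgG 2 (20.97 CPM), Hk in mutant input 1 (266.2 CPM) and Irk2 in mutant IgG 3 (41.83 CPM).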

How the results depend on the processing

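Channel genes called are given as totals. The share of all genes called moved with the setting too. In inputs, lower calls made up 2.35% of all genes in the main fit, 5.92% with the replicate block and 11.1% with only input groups. Where no share is given, a changed count cannot be told from a change in calling over all genes. Fmr1 over IgG in the wild type went from 8 to 5 with RLE factors, 5 with DESeq2, 3 with only the groups compared, 20 in replicates 2 and 3 and 3 in replicates 1, 5 and 7. In the mutant it went from 6 to 3 with RLE or upper-quartile factors, 3 with DESeq2, 2 with only the groups compared, 15 in replicates 2 and 3 and 0 in replicates 1, 5 and 7. Over input, replicates 1, 5 and 7 gave 11 in the wild type (24 with all) and 7 in the mutant (25 with all). In inputs, 2 calls became 1 with RLE or upper-quartile factors, 3 with a stricter filter, with voom and in replicates 2 and 3, 4 with DESeq2, 21 with only input groups and 0 in replicates 1, 5 and 7. In IgG libraries, 2 became 5 with DESeq2, 1 with voom, 0 with only the groups compared, 1 in replicates 2 and 3 and 0 in replicates 1, 5 and 7. The causes were not tested. Genotype differences of Fmr1 over IgG and over input gave 0 under every alternative run.

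Leaving out each library gave 5 to 12 and 2 to 8 calls over IgG in the wild type and mutant, 23 to 25 and 20 to 26 over input, 0 to 3 in inputs and 0 to 5 in IgG, and 0 to 0 for both genotype differences. With the replicate block the counts were 10 and 6 over IgG, 25 and 26 over input, 12 in inputs and 9 in IgG libraries, and 0 for both genotype differences. Of all genes, 5.92% were lower and 7.81% higher in inputs with the block. Shares for the other counts of this paragraph are not given here. By the correlations of their deviations, no pairing was read for wild-type Fmr1 and IgG (−0.0128 to 0.326), inputs (0.0214 to 0.354) and IgG libraries (0.0496 to 0.194). Of these, 1 of 5, 2 of 4 and 3 of 4 correlated best with their own number. For Fmr1 and input 5 of 5 did in the wild type and 3 of 4 in the mutant. Mutant Fmr1 and IgG, read as paired, had 3 of 4, the same count as the IgG libraries. The main fit ignored pairing in every comparison. Depth limits the IgG values, with 2050 counts over all 35 genes in the shallowest library, wild-type replicate 1. Leaving that library out gave 6 calls over IgG in the wild type, and leaving out replicate 7, the deepest, gave 12.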
